A study of Caligus rogercresseyi with 6 samples.

Results

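The contigs described here are from a study of the sea louse Caligus rogercresseyi. They were counted in the chalimus, the adult female and the adult male and hardly at all in the egg and the copepodid. A contig is a transcript sequence assembled from reads. The level in CPM was the counts of a contig divided by the total of its library and multiplied by 1000000, and a share was the CPM in 1 library over the summed CPM of 5 libraries. Members had a share of 20% or more in chalimus, in adult female and in adult male, a joint share of 99% or more in these 3, and a sum of 50 CPM or more. These limits were met by 67 of the 44089 contigs, and 10262 contigs passed the limit on the sum alone. The members were chosen by their measured CPM in the same 5 libraries, so the differences to egg and copepodid and the balance of the 3 libraries are descriptions.

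Each stage or sex was 1 library of RNA pooled from whole wild-type sea lice or their eggs, and the host was farmed Atlantic salmon. The libraries were egg, copepodid, chalimus, adult female and adult male. How many animals a pool held, and whether females carried eggs, was not given in the sources used here. With 1 library per group no difference has a replicate check, and no test was made.

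Sea lice hatch from egg strings carried by the female. The copepodid is the free-swimming larva that finds and settles on the fish, and it lives on its yolk until then. The chalimus is tethered to the host by a frontal filament, and the adults move over the skin. These later stages feed on mucus, skin and blood of the host, and digestive peptidases and secreted proteins of the gut and glands are known products of feeding lice. The tables used here list contigs by identifier, without gene names, and the contig sequences were not used here, so the members are described by identifier with no role given, and the species a contig came from was not examined. The life on the host that the 3 libraries share was taken from the stage labels, and feeding was not measured.

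The smallest library was copepodid, with a total of 78380827 counts, and the largest was adult female, with 149426248. The file for adults of unstated sex had the total of the female and male files added together, with a difference of 0 counts, and served below to see how reads were divided between contigs. The total behind the deposited copepodid FPKM (a level per kilobase of contig and per library total) was larger than the table by 852544 counts, or 1.08%. For egg the same difference was 180333 counts, or 0.149%. The members held 12406 counts in the copepodid table and 6580 in the egg table, fewer than these differences. A value of 0 in either table may therefore be counts left out, and the bounds against copepodid and egg below hold only where none were.

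The 67 members held 3.44% of the chalimus counts (95% Wilson interval 3.434 to 3.441), 4.03% of the female counts (4.028 to 4.034) and 6.28% of the male counts (6.273 to 6.281). In egg they held 0.00545% (0.00532 to 0.00559) and in copepodid 0.0158% (0.0156 to 0.0161). Such intervals reflect counting alone, as reads without molecular identifiers are not independent molecules, and pools of animals may differ by more. Per length the members weighed more, with 4.72% of the summed FPKM in chalimus, 6.87% in adult female and 9.55% in adult male. A higher level in whole animals may be more tissue that holds the transcript or more transcript in it, which cannot be told apart.

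**Figure D1:**
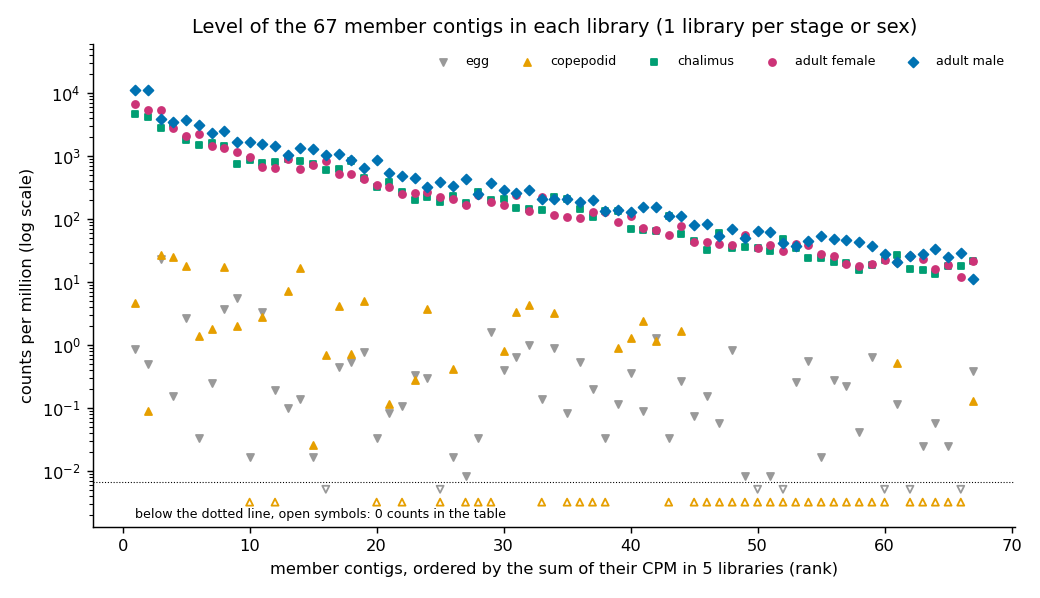
Level of each member in the 5 libraries, in CPM on a log axis, with members ordered by their summed CPM. The chalimus, female and male points run close together from 11004 CPM down to 11.1 CPM, while egg and copepodid points lie at 26.9 CPM or lower, and open symbols mark 0 counts.

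The levels were dominated by a few members. The 8 with the highest summed CPM held 61.5% of the members' counts in chalimus, 67.9% in adult female and 65.2% in adult male. Across the members, the CPM ran from 13.5 to 4652 in chalimus with a median of 146, from 12.1 to 6705 in adult female with a median of 129, and from 11.1 to 11004 in adult male with a median of 209. The share limits allow at most a 3-fold ratio between these libraries, so a member high in 1 of them had to be high in the others.

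GAZX01024538 (590 nt) had the highest summed CPM, at 4652 CPM in chalimus, 6705 in adult female and 11004 in adult male. Egg held 106 counts of it and copepodid 365. Per length it was the first of all contigs in chalimus, at 7879 FPKM, and the second in adult female, at 11356 FPKM, and in adult male, at 18645 FPKM. It was 1.64-fold higher in male than in female (95% counting interval 1.637 to 1.645). Its lowest level of the 3, the one in chalimus, was 999-fold that in copepodid by CPM, 603-fold with trimmed mean of M-values (TMM) scaling and 590-fold with DESeq2 size factors.

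GAZX01028289 (910 nt) stood at 4159 CPM in chalimus, 5450 in adult female and 10966 in adult male, with 60 counts in egg and 7 in copepodid. By FPKM it ranked 11 in chalimus, 7 in adult female and 3 in adult male. Its neighbour by identifier, GAZX01028290 (878 nt), had 3205 CPM in chalimus, 2764 in adult female and 3414 in adult male, so these libraries differed little in it. Its egg value was 19 counts and its copepodid value was 1920 counts, the reverse order of GAZX01028289.

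GAZX01035349 (4662 nt) had the highest level of all members in egg and in copepodid, with 2759 and 2111 counts. It also had the largest female share, at 2765 CPM in chalimus, 5369 in adult female and 3890 in adult male. Its female level was 1.38-fold the male level (1.375 to 1.385). Per length it was far below the preceding contigs, at 1151 FPKM in adult female. The next highest egg level was that of GAZX01025470 (1720 nt), with 660 counts in egg and 155 in copepodid. It stood at 755 CPM in chalimus, 1176.5 in adult female and 1643 in adult male.

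All remaining members among the 8 with the highest summed CPM were highest in adult male. GAZX01025776 (930 nt) had 1805 CPM in chalimus, 2113 in adult female and 3755 in adult male. GAZX01016619 (1449 nt) had 1519, 2222 and 3067 CPM in the same order, with 4 counts in egg and 109 in copepodid. In GAZX01034555 (927 nt) and GAZX01015006 (799 nt) the female level was the lowest of the 3, at 1435 and 1331 CPM against 1626 and 1415 in chalimus and 2345 and 2486 in adult male.

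Adult male was the highest of the 3 libraries in 55 of the 67 members, chalimus in 6 and adult female in 6. Among all 10262 contigs with a sum of 50 CPM or more, adult male was the highest of the 3 in 24.7%, chalimus in 22.6% and adult female in 52.7%. The 10262 include contigs with a high egg share, which the joint limit keeps out of the members. Of the 146 contigs that joined with egg left out of the shares (below), adult female was the highest in 70 and adult male in 65. Members and background thus differ by the rule, and nothing is read from this contrast or from the medians that follow. The lowest library was chalimus in 35 members, adult female in 31 and adult male in 1. The members' median log2 ratio of female to male was -0.76, with quartiles at -0.98 and -0.32, against 0.58 over the 10262 contigs. For chalimus to male it was -0.82 against 0.28 over the 10262 contigs, and for chalimus to female -0.03 against -0.39. These background medians depend on the scaling of the libraries. For female to male the background median was 0.43 with TMM scaling and 0.26 with DESeq2 size factors, and for chalimus to male 0.10 and -0.11. A scaling shifts the members and the background alike, and the members' own ratios were bounded by the limits that chose them.

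**Figure D2:**
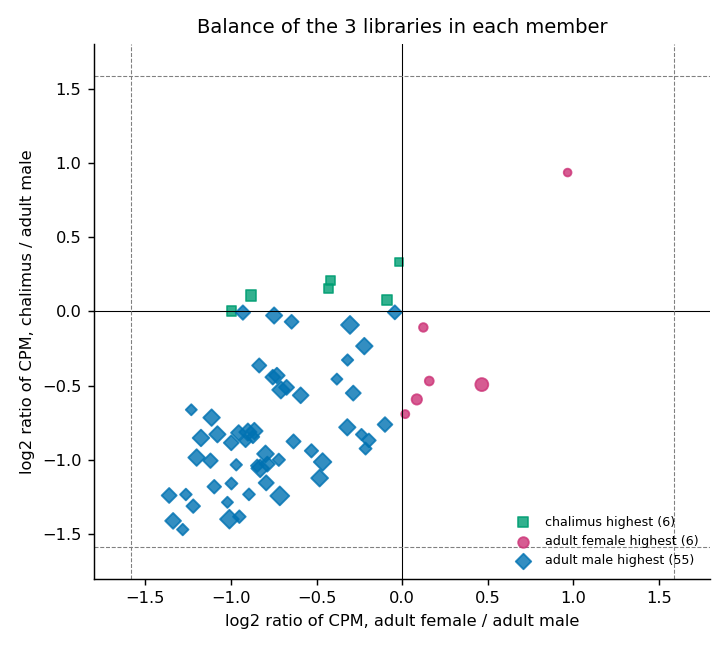
Log2 ratio of CPM between adult female and adult male (x axis) and between chalimus and adult male (y axis) for the 67 members, 1 point each, with larger points for a higher summed CPM. Most points lie in the lower left, where adult male is the highest library (55 members), and the dashed lines mark the 3-fold ratio that the share limits allow.

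A ratio of 2 or more in CPM, with 50 or more counts in the higher library, was used as a measure of size. By it 14 members were higher in adult male than in adult female, where the background was 23.1% of 10004 contigs. For adult male over chalimus there were 20 members, beside a background of 8.72% of 10086 contigs. In 1 member, GAZX01041509, chalimus was higher than adult female, beside a background of 22.3%. No member was higher in female than in male (background 39.6%), in female than in chalimus (30.4%) or in chalimus than in male (23.4%). The limits that chose the members bound these ratios, so nothing is read from the counts. The counts and their backgrounds also moved with the scaling. For male over female there were 27 members with TMM (background 25.2%) and 39 with DESeq2 size factors (27.6%), and for male over chalimus 33 (11.7%) and 41 (15.9%). For chalimus over female there were 0 with either (21.9% and 21.5%), and for female over chalimus 0 (31.5%) and 1 (32.7%).

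The members with the largest male share were GAZX01024539, GAZX01011804 and GAZX01013814. GAZX01013814 (680 nt) had 181 CPM in chalimus, 166 in adult female and 427 in adult male, a male level 2.57-fold the female level (2.53 to 2.61). GAZX01024539 (456 nt) had 324, 341 and 861 CPM in that order, and GAZX01011804 (671 nt) had 15.7, 17.9 and 43.5 CPM. In these 3 members the chalimus and female levels lay close to each other and male stood apart. They were picked for a large male share, and the lower limit on each share left little room between chalimus and female. The pattern thus follows from the choice, and nothing is read from it.

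The members with the largest chalimus share were GAZX01016533, GAZX01041509 and GAZX01022563. In GAZX01016533 (535 nt) chalimus at 227 CPM and adult male at 211 CPM were both well above adult female at 114 CPM. In GAZX01041509 (533 nt) the same held, at 112.6 CPM in chalimus, 112.3 in adult male and 56.2 in adult female. GAZX01022563 (2800 nt) had 47.6 CPM in chalimus, 30.8 in adult female and 41.2 in adult male, and 0 counts in egg and copepodid. Adult female was the lowest of the 3 libraries in each of these.

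The members with the largest female share were GAZX01035349, GAZX01010754 and GAZX01016260. GAZX01010754 (789 nt) had 21.2 CPM in chalimus, 21.7 in adult female and 11.1 in adult male, and was the only member in which adult male was the lowest. It also had the lowest summed CPM, at 54.5. GAZX01016260 (398 nt) had 36.0 CPM in chalimus, 55.7 in adult female and 49.9 in adult male, so the sexes lay close together above chalimus.

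Egg and copepodid together held at most 1% of a member's summed CPM by the rule, and how that remainder was divided was not fixed by it. In 35 members (52.2%) the copepodid table held 0 counts, in 7 (10.4%) the egg table did, and in 6 both did. Among the 10262 contigs with 50 CPM or more, 3.63% were at 0 in copepodid and 1.70% in egg. The rule held egg and copepodid low in the members and not in the 10262, so nothing is read from this difference. The members above 0 in copepodid had between 2 and 2111 counts there, with a median of 148.5, and none had exactly 1 count. Over all 67 members egg was above copepodid in CPM in 35, copepodid was above egg in 26, and both were at 0 in 6. The egg counts of all 67 had a median of 17, and 25 members had fewer than 10.

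**Figure D3:**
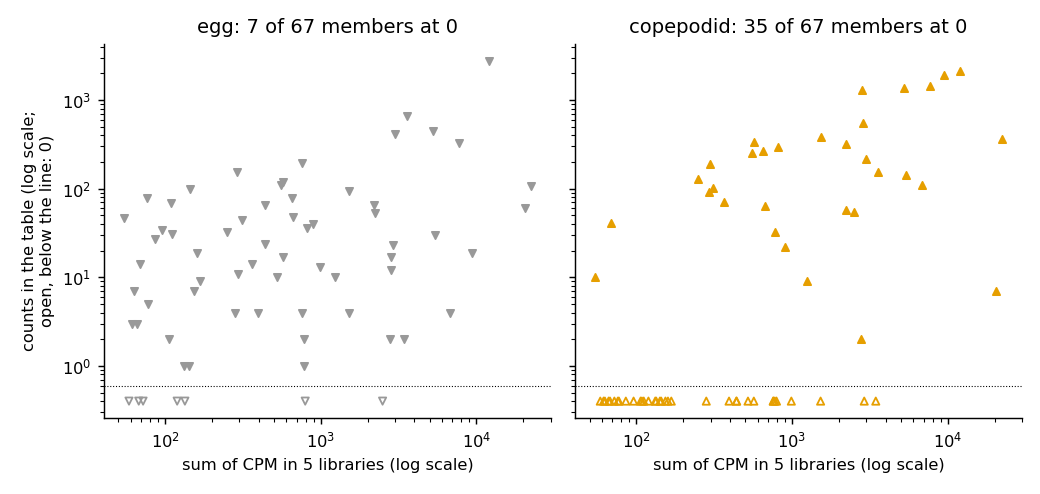
Counts of each member in the egg table (left) and the copepodid table (right) against its summed CPM, both on log axes. Open symbols below the dotted line are the 7 members at 0 in egg and the 35 at 0 in copepodid, and the filled copepodid symbols are mostly members with a high sum.

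The members at 0 in copepodid were mostly the lower ones. Their summed CPM had a median of 144, and 3 of the 35 reached 1000 CPM. The 32 members above 0 had a median of 1866.5 CPM, and 18 of them reached 1000 CPM. A count of 0 in copepodid allows up to 3 counts, or 0.0383 CPM, and in egg up to 0.0249 CPM.

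Zeros in the copepodid table also went with low egg levels outside the members. Of 6341 contigs with 10 CPM or more in chalimus, adult female and adult male, 261 had an egg share under 1%, and all 67 members are among them. With the members left out, 49 of the remaining 194 (25.3%) were at 0 in copepodid, against 0.576% of the 6080 with a higher egg share. Whether depth or counts left out of the copepodid table have a part in these zeros was not tested.

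Among the members at 0 in both egg and copepodid, GAZX01030092 (629 nt) was the highest, at 188 CPM in chalimus, 222 in adult female and 384 in adult male. With 3 counts taken for 0 in each library and the lowest value over 3 scalings, its lowest level on the host was at least 7573-fold higher than the egg level and at least 2907-fold higher than the copepodid level. GAZX01033377 (421 nt) had 35.2 CPM in chalimus, 34.2 in adult female and 64.5 in adult male, which was at least 1377-fold higher than the egg level and at least 544-fold higher than the copepodid level. For GAZX01022563 these bounds were 1237-fold and 497-fold. GAZX01012036 (1325 nt), with 2 counts in egg and 0 in copepodid, was at 849 CPM in chalimus, 949.7 in adult female and 1652 in adult male. No other member at 0 in copepodid had a higher sum.

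Of the 67 members, 16 (23.9%) stood in 8 pairs of consecutive identifiers. Among the 10262 contigs with 50 CPM or more, 73.1% stood next to another of that set. In sets found by the same limits it was 33.3% of 12 contigs of egg and copepodid and 7.46% of 67 of chalimus and adult male. This share also depends on the size of a set, so the pairs are not read as a trait of the members. In 4 pairs the reads of adult female and male were divided differently between the partners when the sexes were counted together, with opposite changes of equal size. GAZX01028289 lost 5393 counts and GAZX01028290 gained 5393, which was -0.24% and 0.63% of their female and male counts. GAZX01024538 gained 148 that GAZX01024539 lost, GAZX01025776 gained 271 that GAZX01025777 lost, and GAZX01016618 gained 193 that GAZX01016619 lost. The division of reads within these pairs thus differed between the separate and the joint counts, and the cause was not tested. The separate levels are less certain than the counting intervals.

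**Figure D4:**
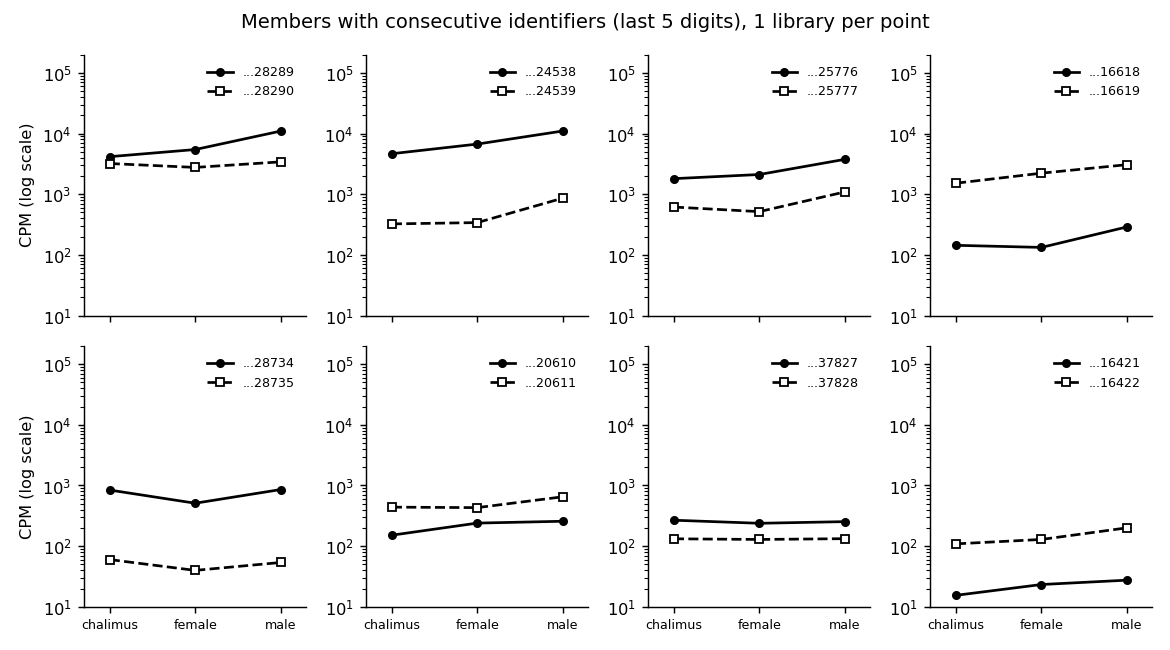
CPM (log axis) of the 8 pairs of members with consecutive identifiers in chalimus, adult female and adult male, 1 library per point, with filled circles for the lower identifier and open squares for the higher. Partners differ up to 19.7-fold in level, and their lines run nearly parallel in most panels but not in the pair GAZX01028289 and GAZX01028290. The share limits bound the slope of every line.

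Partners in a pair differed in level and less in their course over the 3 libraries. The limits that chose the members hold each to at most a 3-fold ratio between these libraries and set no upper limit on level. A like course is therefore no trait of the pairs. Per length GAZX01024538 was 11.1-fold above GAZX01024539 in chalimus, 15.2-fold in adult female and 9.88-fold in adult male. GAZX01016618 and GAZX01016619 had the same length, 1449 nt, and the second was 10.6-fold above the first in chalimus, 16.7-fold in adult female and 10.6-fold in adult male. GAZX01025776 was 3.79-fold above GAZX01025777 in chalimus, 5.27-fold in adult female and 4.44-fold in adult male. GAZX01028289 and GAZX01028290 diverged more than these, with the first 1.25-fold above the second per length in chalimus, 1.90-fold in adult female and 3.10-fold in adult male.

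The other 4 pairs had no change on joint counting. GAZX01028734 (739 nt) was at 840 CPM in chalimus, 510 in adult female and 856 in adult male, and GAZX01028735 (520 nt) at 60.0, 39.8 and 53.8 CPM, so both were lowest in adult female. GAZX01020610 (1108 nt) had 152, 240 and 257 CPM and GAZX01020611 (694 nt) 440, 431 and 650 CPM in the same order, so chalimus and female were level in the second only. GAZX01016421 (456 nt) and GAZX01016422 (570 nt) were both lowest in chalimus, at 15.5 and 109 CPM, intermediate in adult female, at 23.3 and 129 CPM, and highest in adult male, at 27.5 and 200.1 CPM. GAZX01037827 (1898 nt) and GAZX01037828 (2796 nt) were the flattest pair. The first stood at 267 CPM in chalimus, 238 in adult female and 253 in adult male, and the second at 132, 129 and 133 CPM.

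The stretch around the last pair held further contigs of this kind. GAZX01037829 (6777 nt) had 98.5 CPM in chalimus, 100.2 in adult female and 44.1 in adult male, with 3 counts in egg and 0 in copepodid, and missed the limits through a male share of 18.1% alone. GAZX01037830 is a member again, at 22.1, 22.3 and 27.8 CPM and 0 counts in egg and copepodid. Beside the members lay 116 other contigs with the next identifier on either side, of which 69 had a summed CPM of 10 or more. In 15 of these (21.7%) chalimus, adult female and adult male together held 95% or more, as they did in 6.68% of all 17310 contigs outside the members at that level. This count sets no limit on the share of each library. GAZX01037829 is among the 15, and so is GAZX01025501, with a female share of 93.6%.

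Over all members, the count changed in 24 of 67 (35.8%) when the sexes were counted together, against 42.2% of the contigs with 50 CPM or more. In 20 of the 24 the change was under 1% of the female and male counts. The exceptions were GAZX01022134 at 10.7%, GAZX01025500 at 6.55%, GAZX01018961 at -2.10% and GAZX01034342 at -1.13%. GAZX01025500 gained the 395 counts that GAZX01025501 lost, a neighbour with 205 CPM in adult female but 0.138 in adult male. Of 22 members with a change of 20 counts or more, 18 had an equal and opposite change within 2 identifiers, and in 10 of these the partner was no member. Among all 7195 contigs with a change of that size, 2655 (36.9%) had such an opposite change. The difference was not tested.

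The members had a lower median length than the contigs that passed the limit on the sum. It was 930 nt (quartiles 580 and 1583 nt), against 1777 nt (1124 and 2691 nt) for the 10262 contigs with 50 CPM or more, and 55.2% were under 1000 nt against 20.1%. The 10262 had a lower level, with a median sum of 148 CPM against 557. At 500 CPM or more the median length was 927 nt in 35 members and 1619 nt in 1438 other contigs, and within this range too the members had the higher median sum, 2206 CPM against 903. The shortest was GAZX01018140 at 369 nt, with 31.4 CPM in chalimus, 38.0 in adult female and 62.7 in adult male. Longest was GAZX01031021 at 9254 nt, with 63.6, 67.7 and 158 CPM in that order and 17.0 FPKM in adult male. Across the 67 members Spearman's rho between length and summed CPM was -0.0099. The other sets that the same share limits found, given below, also had a lower median length than the 10262, so it is not particular to the members. The difference in length was not tested, since contigs are not replicates.

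**Figure D5:**
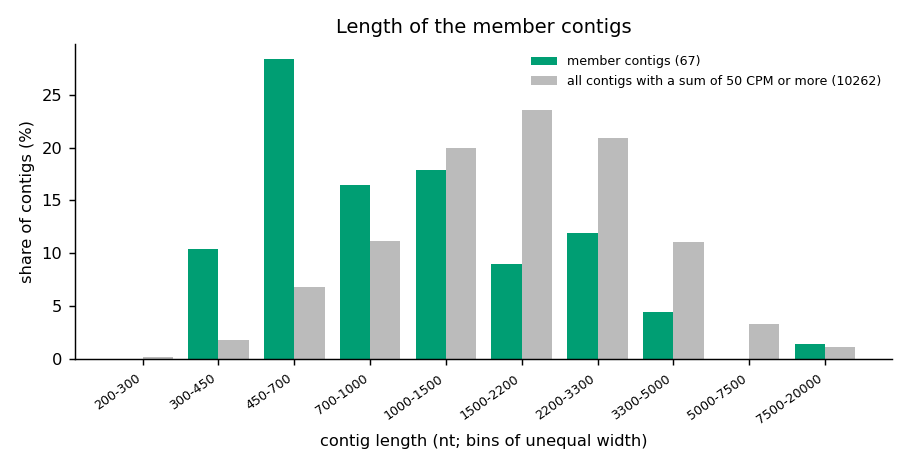
Share of contigs (%) by length (nt, bins of unequal width) for the 67 members and for all 10262 contigs with a sum of 50 CPM or more. The bin from 450 to 700 nt holds 28.4% of the members and 6.86% of the other set.

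The same limits applied to the 10 possible choices of 3 libraries found 11 contigs for copepodid, chalimus and adult male, 5 for egg, copepodid and chalimus, and 0 for each of the other 7 beside the members' own. Applied to the 10 choices of 2 libraries, they found another 67 contigs for chalimus and adult male. There were 13 for copepodid and chalimus, 12 for egg and copepodid, and 3 for egg and adult female. Every other choice had 0, among them adult female with adult male or with chalimus. The contigs of chalimus and adult male had a lower median sum, 126 CPM against 557 for the members, and a median length of 1282 nt. Median length was 783 nt for copepodid, chalimus and adult male, and 875 nt for egg, copepodid and chalimus. For copepodid and chalimus it was 660 nt, for egg and copepodid 870.5 nt, and for egg and adult female 1228 nt, against 930 nt for the members. Of the contigs of chalimus and adult male, 95.5% were at 0 in copepodid, against 52.2% of the members. The levels of these sets were unlike, and of the 23 members with a sum under 200 CPM, 21 were at 0 in copepodid. Nothing is read from the difference.

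By the joint share alone 666 contigs missed at any distance from the limit, by the female share 91, by the sum 91, by the chalimus share 38 and by the male share 5. Few of these were close, with 24 at a joint share of 98% or more, 5 at a female share of 19% or more, 3 at a chalimus share of 19% or more, 0 at such a male share and 4 at a sum of 40 CPM or more. The nearest to the joint limit were GAZX01025681 at 98.97% and GAZX01021745 at 98.96%, whereas GAZX01010754 at 99.05% and GAZX01016618 at 99.07% were just inside. GAZX01016358 and GAZX01003150 missed with female shares of 19.95% and 19.94%, and GAZX01041509 and GAZX01016533 passed with 20.01% and 20.6%. GAZX01028068 and GAZX01037619 missed with chalimus shares of 19.8% and 19.6%, while GAZX01004714 and GAZX01028289 passed with 20.16% and 20.2%. For the male share, GAZX01037829 at 18.1% and GAZX01024324 at 15.2% were outside, and GAZX01010754 at 20.4% and GAZX01034342 at 30.5% inside. For the sum, GAZX01019792 at 44.9 CPM and GAZX01019001 at 44.8 CPM were outside, and GAZX01010754 at 54.5 CPM and GAZX01018961 at 58.6 CPM inside.

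Leaving a low library out of the shares showed which other contigs met the limits over the remaining libraries, whatever their level in the one left out. Without copepodid, 50 contigs joined, with a median copepodid share of 1.86%, and adult male was the highest of the 3 libraries in 41 of them. The one with the highest sum was GAZX01020287 (612 nt), at 2126 CPM in chalimus, 1584 in adult female and 3319 in adult male, but 239 CPM in copepodid and 8.04 CPM in egg. Without egg, 146 contigs joined, with a median egg share of 17.2%, and adult female was the highest in 70 and adult male in 65. With the members these made 117 contigs without copepodid and 213 without egg.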

How the data were processed

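The sources were 6 tables, 1 per sample, each listing the same 44089 contigs. The counts deposited by the authors are whole numbers with no normalisation, and the FPKM in the deposited files relate counts to contig length and to a library total, with 3 decimals, per the file headers and the values. Aligner, counting tool and assembler: not given in the sources used here. Contig lengths were recovered by dividing counts by FPKM. For contigs above 300 FPKM (279 to 454 per file) the results lay within 0.0061 nt of whole numbers.

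CPM, shares and the members were computed from the counts of 5 libraries (Python 3.11.15, pandas 2.3.3). The code of the rule was also run on simulated counts, with planted contigs well inside the limits. That run checks the code alone and cannot speak to members near a limit. The adult file of unstated sex was left out of the shares, since it repeats the female and male data. TMM (edgeR 4.0.16) and DESeq2 1.42.0 size factors served as alternatives (R 4.3.3). Counting intervals are 95% exact (Clopper-Pearson) for ratios and Wilson for shares (scipy 1.17.1). A fold against 0 counts used 3 counts per library.

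The members, lists and settings were chosen with earlier results of these data known, and the length comparison at 500 CPM or more, the scaled folds of GAZX01024538 and the copepodid zeros outside the members were added after seeing the data. Contigs named are those with the highest sum or share or FPKM in each library, the highest egg or copepodid level, the longest and shortest, the pairs of consecutive identifiers (8 pairs tied, all named) and those nearest each limit. GAZX01012036, GAZX01037830, GAZX01022134, GAZX01025500, GAZX01025501, GAZX01018961 and GAZX01020287 were named after their values were seen. Lists of genes by name could not be applied to identifiers.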

Additional observations from a re-analysis of the deposited data

How the results depend on the processing

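No paired analysis was possible because each group holds 1 library. The number of members was 55 with TMM (54 shared with the 67) and 44 with DESeq2 size factors (42 shared). It was 21 with a share limit of 25%, 126 with a joint limit of 95%, 37 when egg and copepodid could hold 0.1% at most, 158 with no lower limit on the sum, 117 without copepodid and 213 without egg, each following from the limit. Chosen after seeing the data, leaving out contigs with any change on joint counting left 43 members, and leaving out changes of 1% or more left 63.

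The median log2 ratio of female to male stayed negative in every setting. It was -0.87 with TMM, -0.98 with DESeq2 size factors, -0.81 and -0.42 with share limits of 15% and 25%, -0.80 with a sum of 20 CPM, -0.63 with no lower limit, -0.79 without copepodid and -0.37 without egg. For chalimus to male it was -0.96 with TMM, -0.97 with DESeq2 size factors, -0.44 with a share limit of 25%, -0.45 with no lower limit, -0.79 without copepodid and -0.43 without egg. The chalimus to female median, -0.03, turned to 0.058 with a share limit of 25%, 0.0095 with a sum of 20 CPM, 0.080 with no lower limit, 0.0067 without copepodid and 0.027 without contigs changed on joint counting, and was -0.19 without egg. The cause was not tested.

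With TMM and DESeq2 size factors the members held 3.12% and 3.05% in chalimus, 3.75% and 3.76% in adult female, 6.46% and 7.30% in adult male, 0.00418% and 0.00378% in egg, and 0.0238% and 0.0238% in copepodid, as shares of the scaled totals. Members 2-fold or more higher in male than in female numbered 27 and 39 (background 25.2% and 27.6% of contigs), and in male than in chalimus 33 and 41 (11.7% and 15.9%). In chalimus above female there were 0 and 0 (21.9% and 21.5%), and in female above chalimus 1 with DESeq2 size factors (32.7%). Adult male was the highest of the 3 libraries in 62 and 65 members.

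Depth limits the zeros, since 3 counts in copepodid are 0.0383 CPM. Setting lower counts in egg and copepodid to 3 left the same 67 members. Such counts add at most 0.0249 CPM in egg and 0.0383 CPM in copepodid, where a member's sum is 50 CPM or more. The setting could thus hardly move a member, and nothing is read from its result. Counts left out of the copepodid table may be more than 3 per contig and are not covered by it.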
